A study of Mus with 2 samples.

Results

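The genes described here encode parts of the basement membrane, namely the laminin alpha chains *Lama2*, *Lama3*, *Lama4* and *Lama5*, the beta chains *Lamb1* and *Lamb2*, the gamma chain *Lamc1*, the nidogens *Nid1* and *Nid2*, and perlecan, encoded by *Hspg2*. They are 10 of the 32285 genes in the deposited tables, were chosen as a family by name, and all 10 had UMIs in both libraries. Transcripts of single nuclei were counted by a droplet method (snRNA-seq) in frozen interscapular brown adipose tissue (iBAT) of C57BL/6 mice on normal chow at 8 weeks of age. One library came from *Wtap* flox/flox mice, in which an exon of *Wtap* is flanked by loxP sites. The other was labelled *Wtap*-BKO, with the same floxed alleles plus the *Ucp1*-iCre transgene, whose promoter drives the recombinase in brown adipocytes. Its activity in the other cells of the tissue was not checked here. *Wtap* encodes a subunit of the complex that methylates adenosine in mRNA. Each library pooled nuclei of 4 mice, so there was 1 library and no replicate per genotype, no test between genotypes was possible, and no p-value is given.

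Basement membranes are thin sheets of extracellular matrix that surround each adipocyte, line the vessels and enclose nerves and muscle fibres. Laminins are their first layer: an alpha, a beta and a gamma chain join into a cross-shaped molecule whose alpha chain binds integrins and dystroglycan on the cell surface. Nidogens tie the laminin layer to the type IV collagen network, and perlecan, a large heparan sulfate proteoglycan, binds both and holds growth factors. Which alpha chain a cell makes differs between tissues: *Lama2* is known from muscle and peripheral nerve, *Lama4* from vessels and fat cells, *Lama5* from vessels and epithelia, and *Lama3* from epithelia such as skin.

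In all, 9494 nuclei with 10770604 unique molecular identifiers (UMIs) came from *Wtap* flox/flox mice and 8772 nuclei with 13945673 UMIs from those labelled *Wtap*-BKO, and 20 barcodes occurred in both. Among adipocyte-like nuclei, *Wtap* itself had 382 UMIs without the transgene, or 50.2 counts per 1000000 UMIs (CPM), and 401 UMIs, or 48.2 CPM, under the *Wtap*-BKO label. A gene's count includes reads outside the deleted exon, so this value does not check the label. Mitochondrial transcripts were 7.60% and 11.7% of UMIs without and with the *Wtap*-BKO label, and 33.0% and 74.8% of nuclei had over 5% of such UMIs. Nuclei were sorted into lineages by clustering without any of the 10 genes, and each lineage was named "X-like" from marker genes in which none of them appears. The *Wtap* flox/flox library and the library labelled *Wtap*-BKO held 6754 and 4920 adipocyte-like, 270 and 489 fibroblast-like, 1141 and 775 endothelial-like, 485 and 286 pericyte-like, 292 and 1121 macrophage-like, and 120 and 748 T-cell-like nuclei. B-cell-like nuclei (11 and 59) and an unnamed cluster led by mitochondrial transcripts (421 and 374 nuclei) are not described further. CPM below always means UMIs of a gene per 1000000 UMIs of that lineage in that library, with an exact 95% Poisson interval in parentheses, and shares and ratios carry exact intervals too, while intervals of a difference between 2 ratios are normal approximations; all of them cover counting error only. The level of one gene is not read as more or less abundant than that of another, since genes differ in length, and shares or ratios of UMIs between genes are given only to compare them across lineages and libraries. UMIs of these genes in macrophage- and T-cell-like nuclei, which are not known to build basement membrane, are used as a measure of free RNA, and a level at or below theirs is read as background. The 12 adipocyte markers had 7105 and 5127 CPM in macrophage-like and 9499 and 6190 CPM in T-cell-like nuclei, against 14570 and 16963 CPM in adipocyte-like nuclei.

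The alpha chain *Lama2* (gene span chr10:26981285-27617191, build mm10) was far higher in fibroblast-like nuclei than in any other lineage. In the *Wtap* flox/flox library its level there was 1282 CPM (95% interval 1158 to 1416, 390 UMIs), and under the *Wtap*-BKO label it was 1517 CPM (1442 to 1595, 1538 UMIs). Adipocyte-like nuclei had 9.32 and 10.3 CPM, so that fibroblast-like nuclei stood 138-fold and 147-fold above them, a log2 ratio of 7.10 (6.74 to 7.49) and 7.20 (6.88 to 7.53). Macrophage- and T-cell-like nuclei had 31.2 and 28.7 CPM in the *Wtap* flox/flox library and 20.1 and 15.3 CPM in the other, so the adipocyte-like value was background in both libraries. Pericyte-like nuclei followed with 56.5 and 73.2 CPM. *Lama2* was left out of the clustering and of the marker list, and it still came first among the 10 leading genes of the fibroblast-like cluster, which also held the progenitor marker *Pdgfra*. After thinning of each nucleus to 1000 UMIs, 62.4% (53.0 to 71.2) of 117 and 65.9% (60.9 to 70.6) of 387 fibroblast-like nuclei had a *Lama2* UMI, against 2.42% of 124 and 1.32% of 757 macrophage-like nuclei. Before thinning the shares were 64.8% and 78.3% of fibroblast-like nuclei, at median depths of 921 and 1590 UMIs, and 2.05% of macrophage-like nuclei in both libraries, at 891 and 1316 UMIs.

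**Figure D1:**
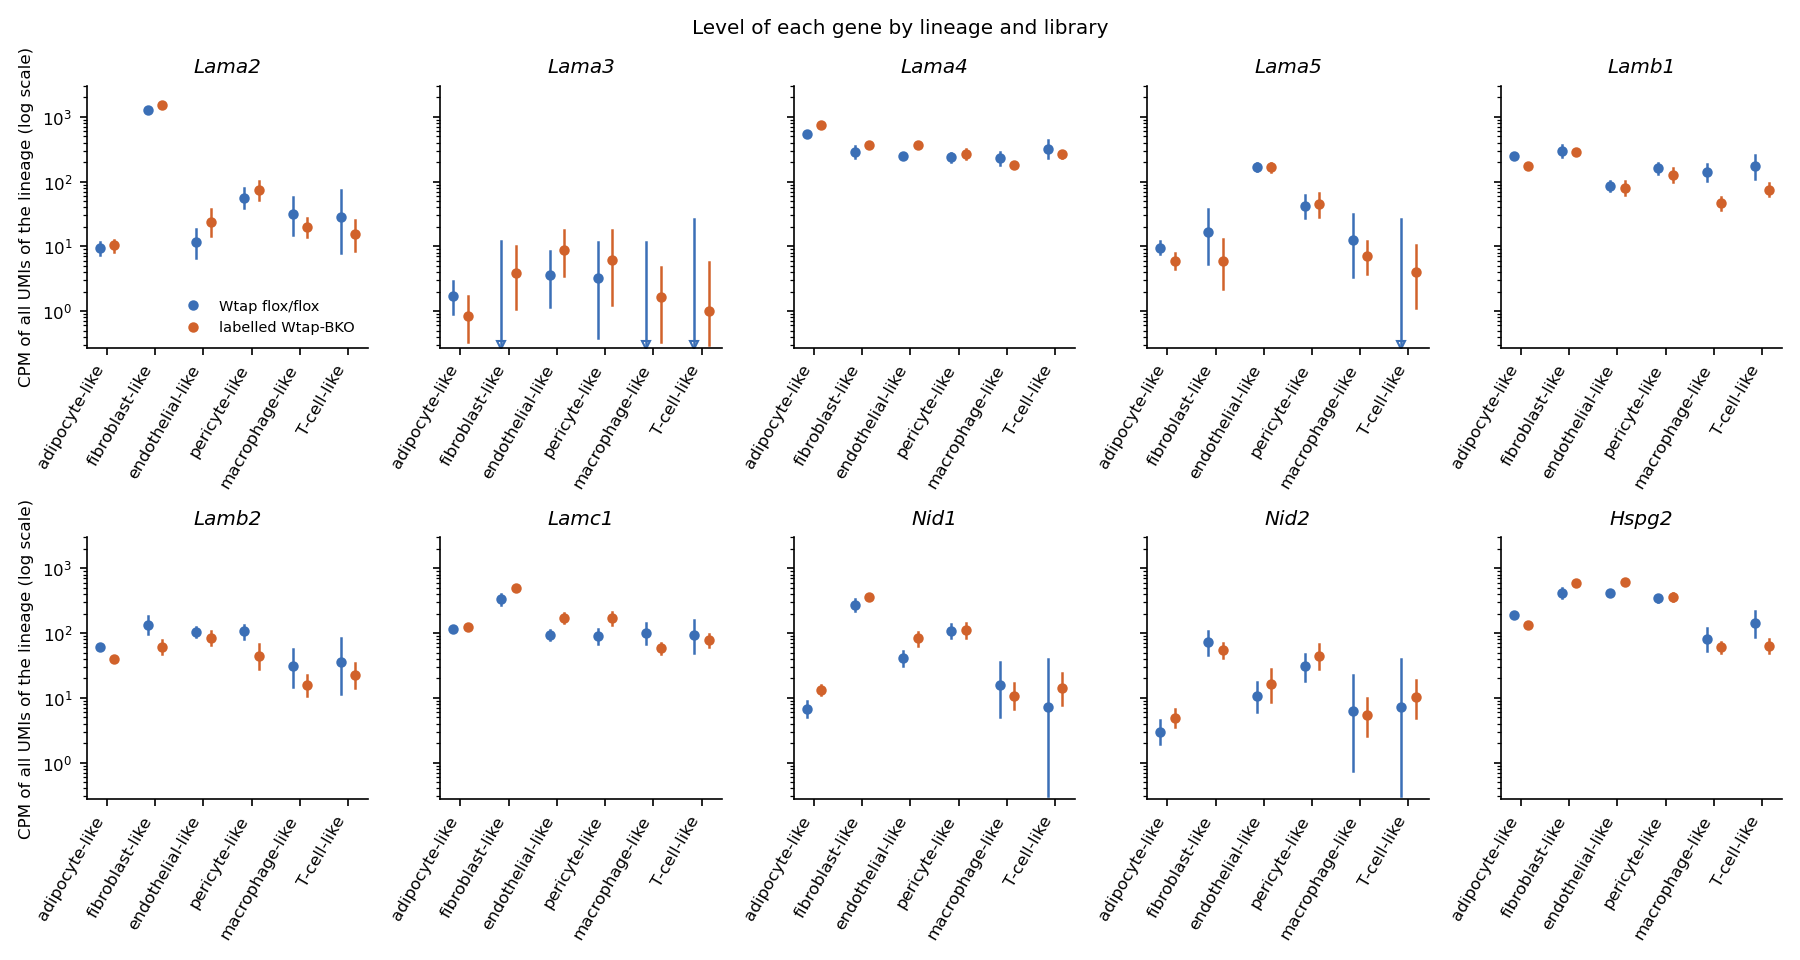
Level of each of the 10 genes in CPM on a log scale, for 6 lineages (x axis), with the *Wtap* flox/flox library in blue and the library labelled *Wtap*-BKO in orange; points are the levels, lines the exact 95% Poisson intervals, and an open triangle marks 0 UMIs. *Lama2* stands at 1282 and 1517 CPM in fibroblast-like nuclei, *Lama4* is highest in adipocyte-like nuclei and *Lama5* in endothelial-like nuclei.

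Among fibroblast-like nuclei *Lama2* was not even. Nuclei with a UMI of *Pi16* or *Dpp4*, which mark a population of progenitors in the reticular interstitium of fat, had 675 CPM of *Lama2* in the *Wtap* flox/flox library (31 nuclei) and 857 CPM in the library labelled *Wtap*-BKO (79 nuclei). Those without had 1363 CPM (239 nuclei) and 1629 CPM (410 nuclei), giving log2 ratios of -1.01 (-1.67 to -0.42) and -0.93 (-1.2 to -0.66). *Lama2* was thus lower in nuclei with those markers in both libraries. *Hspg2* showed the same direction in both, at -2.05 (-3.95 to -0.66) and -0.71 (-1.13 to -0.31). *Lamc1* was at 0.88 (0.10 to 1.60) in the *Wtap* flox/flox library, opposite to *Lama2*, and at -0.09 (-0.47 to 0.28) in the other. The ratios of *Lamb1* and *Lama4* had intervals that spanned 0 in both libraries. For *Nid1* the ratio was 0.05 (-1.07 to 1.01) in one library and 0.65 (0.27 to 1.01) in the other. A single UMI splits the nuclei here, so the group without one may hold nuclei whose transcript was not captured.

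*Lama4* (chr10:38965515-39110188), which encodes the alpha chain known from vessels and fat, had its highest level in adipocyte-like nuclei. In the *Wtap* flox/flox library the level was 539.9 CPM (524 to 557, 4112 UMIs), and under the *Wtap*-BKO label it was 761 CPM (742 to 779.7, 6334 UMIs), the highest of the 6 lineages in both. Fibroblast-like nuclei had 286 and 374 CPM, endothelial-like nuclei 248 and 369 CPM, and pericyte-like nuclei 239 and 267 CPM. Free RNA of *Lama4* was high: macrophage-like nuclei held 231 and 183 CPM, and T-cell-like nuclei held 323 and 266 CPM. In the *Wtap* flox/flox library the intervals of the log2 ratio of fibroblast-, endothelial- and pericyte-like nuclei over either immune lineage all spanned 0, so *Lama4* of these 3 lineages could not be told from background there. In the library labelled *Wtap*-BKO, fibroblast-like and endothelial-like nuclei stood above T-cell-like nuclei by log2 0.49 (0.26 to 0.72) and 0.47 (0.23 to 0.72), while pericyte-like nuclei were level with them. Adipocyte-like nuclei stood above T-cell-like nuclei in both libraries, by 0.74 (0.32 to 1.2) and 1.51 (1.34 to 1.70).

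*Lama5* (chr2:180176373-180225904) marked endothelial-like nuclei, where the level was 168 CPM (147 to 191, 233 UMIs) and 166 CPM (139 to 196, 132 UMIs). Pericyte-like nuclei followed with 42 and 44.8 CPM, so that the endothelial-like level was 4.01-fold and 3.70-fold higher. Adipocyte-like nuclei (9.59 and 6.01 CPM) did not exceed macrophage-like nuclei (12.5 and 7.05 CPM), while T-cell-like nuclei had 0 and 4.08 CPM (0 and 4 UMIs). Endothelial-like nuclei formed 2 clusters in these data, and *Lama5* was higher in cluster 3, led by *Cyyr1* and *Adgrl4*, than in cluster 11, led by *Fgd5* and *Chrnb1*: 203 against 93.1 CPM in the *Wtap* flox/flox library and 187 against 87.1 CPM in the other. *Lama4* had the opposite order in those clusters, with 161 against 434 CPM and 295 against 638 CPM. Both orders were seen in each library. The 161 CPM of *Lama4* in cluster 3 was below macrophage-like (231 CPM) and T-cell-like nuclei (323 CPM) of that library and is read as background. In the other library T-cell-like nuclei had 266 CPM.

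*Lama3*, the epithelial alpha chain, was barely detected, with 45 UMIs over all 6 lineages and both libraries. Adipocyte-like nuclei had 13 and 7 of them, at 1.71 and 0.84 CPM. In the *Wtap* flox/flox library, fibroblast-like, macrophage-like and T-cell-like nuclei had none, where 3 UMIs would have been 9.86, 9.36 and 21.5 CPM. Nothing on the order of lineages is drawn from it.

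The beta chains *Lamb1* (chr12:31265146-31329644) and *Lamb2* (chr9:108479847-108490530) replace one another in the laminin molecule. *Lamb1* was highest in fibroblast-like nuclei (296 and 289 CPM) and next in adipocyte-like nuclei (249 and 173 CPM). These neighbours did not differ beyond counting error in the *Wtap* flox/flox library (log2 0.25, -0.07 to 0.56) and did in the library labelled *Wtap*-BKO (0.74, 0.56 to 0.93). Endothelial-like nuclei, at 85.9 and 80.3 CPM, were below macrophage-like (140 CPM) and T-cell-like nuclei (172 CPM) in the first library. In the second they were above macrophage-like nuclei (46.1 CPM) but not beyond counting error above T-cell-like nuclei (75.5 CPM; log2 0.09, -0.42 to 0.59). *Lamb2* was more even, with 135 and 61.2 CPM in fibroblast-like, 105 and 85.3 CPM in endothelial-like, 107 and 44.8 CPM in pericyte-like and 60.1 and 39.4 CPM in adipocyte-like nuclei. Its highest level was in fibroblast-like nuclei in one library and in endothelial-like nuclei in the other, but the log2 ratio between these lineages was 0.36 (-0.17 to 0.87) and -0.48 (-1.0 to 0.04), and both intervals spanned 0.

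*Lamc1* (chr1:153218922-153332786), the gamma chain shared by most laminins, was highest in fibroblast-like nuclei at 335 CPM (273 to 407) and 501 CPM (458 to 547), which was 2.92-fold and 4.02-fold above adipocyte-like nuclei (115 and 125 CPM). Endothelial-like nuclei had 92.4 and 171 CPM and pericyte-like nuclei 90.4 and 169 CPM. In the *Wtap* flox/flox library the last 2 lineages were at the level of macrophage- and T-cell-like nuclei (99.8 and 93.3 CPM), whereas in the library labelled *Wtap*-BKO they were above them (58.5 and 78.5 CPM).

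The nidogens, the linkers of the membrane, were also highest in fibroblast-like nuclei. *Nid1* (chr13:13437602-13512275) had 273 CPM (217 to 338) and 362 CPM (326 to 401) in fibroblast-like nuclei, 2.52-fold and 3.24-fold above pericyte-like nuclei (108 and 112 CPM). Endothelial-like nuclei had 41.2 and 82.8 CPM. Adipocyte-like nuclei, with 6.70 and 13.3 CPM, were below both immune lineages in the first library (15.6 CPM in macrophage-like and 7.18 CPM in T-cell-like nuclei) and between them in the second (10.8 and 14.3 CPM). *Nid2* (chr14:19751257-19811787) had 72.3 and 54.3 CPM in fibroblast-like nuclei and 30.7 and 44.8 CPM in pericyte-like nuclei, which did not differ beyond counting error in the library labelled *Wtap*-BKO (log2 0.28, -0.46 to 1.06). Its adipocyte-like level of 3.02 and 4.92 CPM was below that of both immune lineages.

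*Hspg2* (chr4:137468751-137570630), perlecan, was shared by the stromal and vascular lineages. Fibroblast-like nuclei had 424 CPM (354 to 504) and 599 CPM (552 to 648), and endothelial-like nuclei had 410.2 CPM (377 to 445) and 607 CPM (555 to 664). The 2 lineages did not differ beyond counting error in either library (log2 0.05, -0.24 to 0.33, and -0.02, -0.20 to 0.15). Pericyte-like nuclei had 344 and 360.1 CPM, and adipocyte-like nuclei 191 and 132 CPM, against 81.1 and 60.7 CPM in macrophage-like and 144 and 63.2 CPM in T-cell-like nuclei.

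Leaving *Lama3* aside, 7 of 9 genes had their highest level in the same lineage in both libraries: *Lama4* in adipocyte-like nuclei, *Lama5* in endothelial-like nuclei, and *Lama2*, *Lamb1*, *Lamc1*, *Nid1* and *Nid2* in fibroblast-like nuclei. *Lamb2* and *Hspg2* changed between fibroblast-like and endothelial-like nuclei. Only 5 of the 10, *Lama4*, *Lamb1*, *Lamb2*, *Lamc1* and *Hspg2*, had an adipocyte-like level above both immune lineages in both libraries. In the *Wtap* flox/flox library the margin over T-cell-like nuclei cleared counting error for *Lama4* alone: the log2 ratio was 0.53 (-0.05 to 1.18) for *Lamb1*, 0.74 (-0.49 to 2.37) for *Lamb2*, 0.30 (-0.48 to 1.22) for *Lamc1* and 0.41 (-0.22 to 1.12) for *Hspg2*. In the library labelled *Wtap*-BKO it cleared counting error for all 5.

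Shares of the UMIs of the alpha chains do not depend on the library total. In adipocyte-like nuclei *Lama4* made up 96.3% (95.7 to 96.9) of 4269 alpha chain UMIs without the transgene and 97.8% (97.4 to 98.1) of 6477 in the library labelled *Wtap*-BKO. *Lama2* made up 80.9% (77.1 to 84.3) of 482 and 79.8% (78 to 81.6) of 1927 in fibroblast-like nuclei. *Lama5* made up 39.0% (35.1 to 43.1) of 597 and 29.2% (25.0 to 33.6) of 452 in endothelial-like nuclei, and 12.3% of 211 and 11.5% of 192 in pericyte-like nuclei. The macrophage-like and T-cell-like shares of *Lama4*, between 84.1% and 92.9%, were closest to those of adipocyte-like nuclei. Among the beta chains, *Lamb2* took 54.9% (48.7 to 61.0) and 51.5% (42.7 to 60.3) in endothelial-like nuclei and 19.5% (17.9 to 21.1) and 18.6% (16.8 to 20.5) in adipocyte-like nuclei. In fibroblast-like nuclei its share was 31.3% (23.5 to 40.0) of 131 UMIs and 17.5% (13.7 to 21.8) of 355 UMIs.

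**Figure D2:**
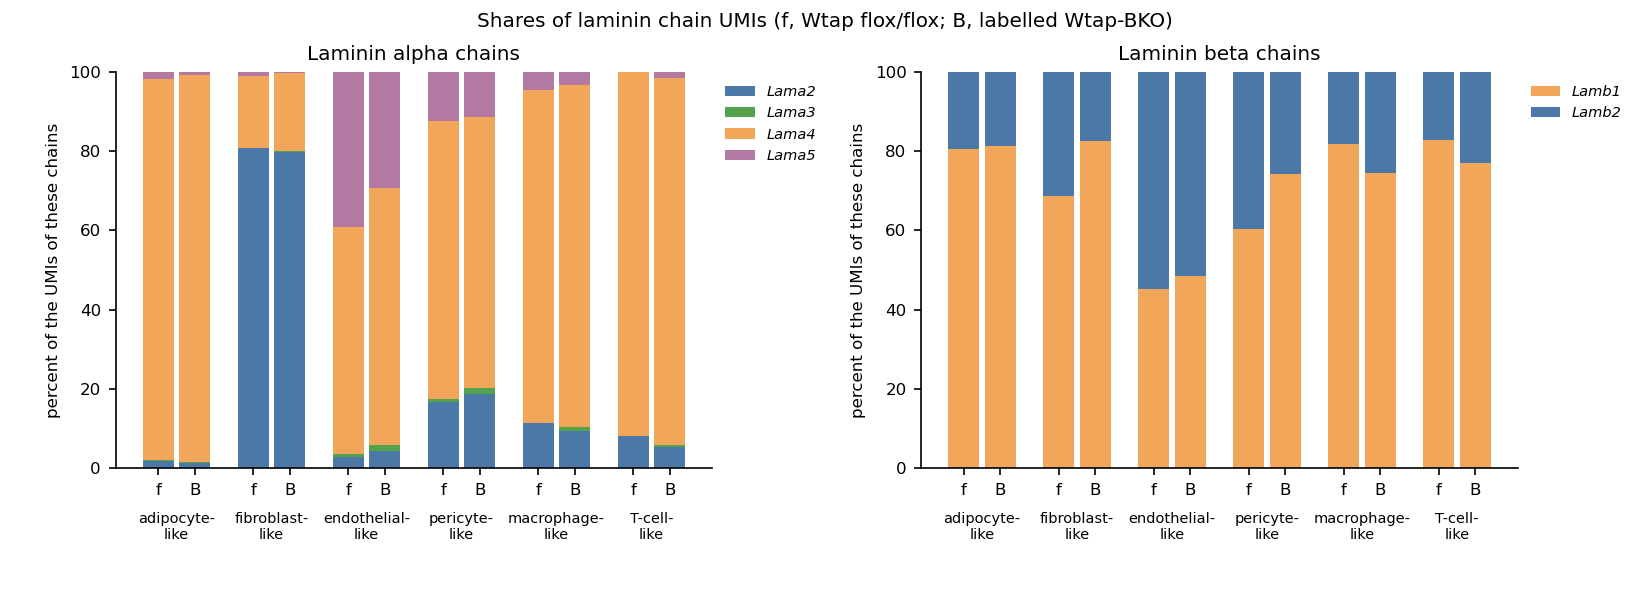
Shares of UMIs (percent, y axis) among 4 laminin alpha chains (left) and 2 beta chains (right) in 6 lineages, with the *Wtap* flox/flox library (f) beside the library labelled *Wtap*-BKO (B). *Lama4* fills 96.3% and 97.8% of the adipocyte-like bars, *Lama2* 80.9% and 79.8% of the fibroblast-like bars, and *Lama5* 39.0% and 29.2% of the endothelial-like bars.

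The 2 libraries were next compared within adipocyte-like nuclei, the cells in which *Ucp1*-iCre acts. All differences between libraries below are log2 ratios of CPM, with *Wtap* flox/flox as the denominator. *Lama4* was higher by 0.49 (0.44 to 0.55), a ratio of 1.41, and *Lamb1* was lower, with 249 CPM (238 to 260.1, 1894 UMIs) against 173 CPM (164 to 182, 1438 UMIs) and a ratio of -0.53 (-0.63 to -0.43). *Hspg2* was lower by the same amount, with 191 CPM (1451 UMIs) against 132 CPM (1102 UMIs), at -0.53 (-0.64 to -0.41). *Lamb2* was at -0.61 (-0.82 to -0.40), with 458 and 328 UMIs, and *Lamc1* at 0.12 (-0.02 to 0.25), with 876 and 1038 UMIs. An alpha chain was thus higher, the beta chains and perlecan lower, and the gamma chain close to level, except that *Lamb1* was at 0.24 and *Lamc1* at 1.78 with the CPM of the immune lineages subtracted.

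These directions were the same in each group of adipocytes for 3 genes. Adipocyte-like nuclei formed 5 clusters, and *Lama4* was above 0 in 5 of 5 (0.27 to 0.54), while *Lamb1* (-0.86 to -0.22) and *Hspg2* (-0.73 to -0.29) were below 0 in 5 of 5. *Lamb2* was below 0 in 4 of 5 and *Lamc1* above 0 in 3 of 5. The clusters come from the same 2 libraries and are no replicates. *Lama4* was highest in cluster 9, led by *Slc7a10*, an amino acid transporter of adipocytes, with 831 and 1078 CPM, and lowest in cluster 2, with 411 and 539 CPM, where mitochondrial transcripts were among the leading genes.

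**Figure D3:**
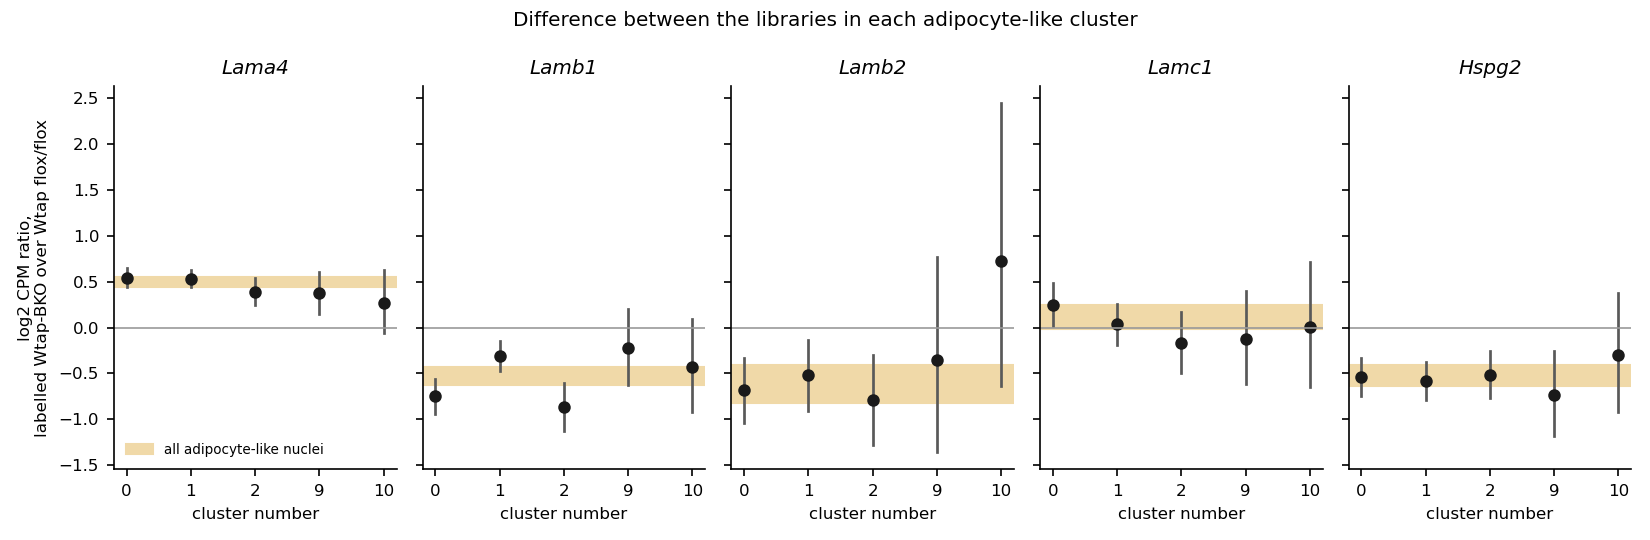
Log2 CPM ratio of the library labelled *Wtap*-BKO to that of *Wtap* flox/flox (y axis) for 5 genes in each of the 5 adipocyte-like clusters (x axis); points are the ratios, lines the 95% counting intervals, and the shaded band the interval over all adipocyte-like nuclei. *Lama4* lies above 0 and *Lamb1* and *Hspg2* lie below 0 in every cluster, and 1 *Lama4* interval, 2 *Lamb1* intervals and 1 *Hspg2* interval include 0.

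UMIs in the immune lineages, read as free RNA, differed in the same direction for part of these genes. *Lamb1* was at -1.61 (-2.14 to -1.05) in macrophage-like nuclei and at -1.19 (-1.87 to -0.46) in T-cell-like nuclei. *Hspg2* was at -1.18 (-1.93 to -0.38) in T-cell-like nuclei. *Lama4* instead was at -0.33 (-0.70 to 0.05) and -0.28 (-0.74 to 0.21) in the immune lineages. When the CPM of immune nuclei of the same library was subtracted from the adipocyte-like CPM, *Lama4* was at 0.96, *Lamc1* at 1.78, *Hspg2* at -0.35 and *Lamb2* at -0.37. *Lamb1* turned to 0.24, so the direction of *Lamb1* in adipocyte-like nuclei depends on whether immune nuclei are taken as free RNA. For *Lamc1* the subtraction left a small remainder in the *Wtap* flox/flox library, where 115 CPM in adipocyte-like nuclei stood against 99.8 and 93.3 CPM in the immune lineages. Macrophage markers in adipocyte-like nuclei were at 111 and 268 CPM, and their part in these results was not tested.

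Ratios of UMIs between 2 genes of 1 lineage do not depend on the total either. In adipocyte-like nuclei *Lama4* gave 2.17 UMIs per *Lamb1* UMI (2.06 to 2.29) without the transgene and 4.40 (4.16 to 4.67) in the library labelled *Wtap*-BKO. The same ratio was 1.64 and 3.98 in macrophage-like nuclei and 1.88 and 3.53 in T-cell-like nuclei, near the adipocyte-like value of the same library. In fibroblast-like nuclei it was 0.967 and 1.29, a difference of 0.42 on the log2 scale (-0.06 to 0.90). Endothelial-like nuclei had 2.88 and 4.59, a difference of 0.67 (0.18 to 1.16), and pericyte-like nuclei 1.48 and 2.08, a difference of 0.49 (-0.08 to 1.06). For *Lama4* over *Lamc1*, adipocyte-like nuclei had 4.69 and 6.10.

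Among all genes tested in adipocyte-like nuclei (20 or more UMIs in both libraries together), 25.2% were at least 1.5-fold higher and 12.1% at least 1.5-fold lower in the library labelled *Wtap*-BKO, and the median log2 ratio was 0.07. All 10 members were testable, with a median of -0.20; 2 were past the fold upward (*Nid1* and *Nid2*) and 3 downward (*Lama3*, *Lama5* and *Lamb2*). Of these 5, *Lamb2* was the one with a level above both immune lineages in both libraries. Leaving mitochondrial UMIs out of the total raised the median of all genes by 0.11, to 0.19. *Lamb2*, *Lama5* and *Lama3* were then at -0.50, -0.56 and -0.91, so that only *Lama3* of the 3 stayed past the fold. With that total 3 of 10 members were past the fold upward (*Lama4*, *Nid1* and *Nid2*) and 1 downward, against 29.3% and 8.97% of all genes. With all UMIs in the total, *Lama4*, *Lamb1*, *Hspg2* and *Lamc1* did not reach 1.5-fold. *Lama4* did with mitochondrial UMIs left out, and *Lama4* and *Lamc1* did with immune CPM subtracted.

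In fibroblast-like nuclei, 5 genes were higher in the library labelled *Wtap*-BKO beyond counting error, none of them by 1.5-fold. *Lamc1* was at 0.58 (0.27 to 0.90), *Hspg2* at 0.50 (0.22 to 0.78), *Nid1* at 0.41 (0.06 to 0.77), *Lama4* at 0.39 (0.05 to 0.74) and *Lama2* at 0.24 (0.08 to 0.41). With the CPM of the immune lineages subtracted, *Lama4* was at 2.57, *Lamc1* at 0.88, *Hspg2* at 0.73 and *Lamb1* at 0.67, so that 4 of 8 were then past the fold upward and 1 downward, against 36.8% and 28.0% of the 2824 genes above the immune CPM in both libraries. *Lama4* was left with 27.3 and 162 CPM, and its value before the subtraction could not be told from background in the *Wtap* flox/flox library. Without the subtraction *Lamb1* did not differ beyond counting error, at -0.03 (-0.38 to 0.32). *Lamb2* was lower, with 135 CPM (96.7 to 183, 41 UMIs) against 61.2 CPM (46.9 to 78.4, 62 UMIs), at -1.14 (-1.73 to -0.53). Of 8 members tested, 0 were at least 1.5-fold higher and 1, *Lamb2*, lower, against 23.8% and 13.5% of all 8378 genes. The median of the members was 0.31, and that of all genes 0.09. The 12 fibroblast markers together had 8489 and 15434 CPM in these nuclei, and *Lama2* UMIs per 100 marker UMIs were 15.1 and 9.83. The part of this marker difference in the result was not tested.

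In endothelial-like nuclei the gamma chain and *Nid1* were higher. *Lamc1* had 92.4 CPM (77.1 to 109.9, 128 UMIs) and 171 CPM (143 to 202, 136 UMIs), at 0.88 (0.53 to 1.24), and *Nid1* had 41.2 CPM (57 UMIs) and 82.8 CPM (66 UMIs), at 1.01 (0.48 to 1.55). *Lama2* (16 and 19 UMIs) was at 1.05 (0.01 to 2.10) and *Nid2* (15 and 13 UMIs) at 0.59 (-0.60 to 1.76), and neither stood above the immune lineages beyond counting error in both libraries. The same held for *Lamc1* and *Nid1*: in the *Wtap* flox/flox library the endothelial-like level over that of T-cell-like nuclei was -0.01 (-0.84 to 0.93) for *Lamc1*, which was at background there, and 2.52 (-0.02 to 7.85) for *Nid1*. *Hspg2* and *Lama4* were higher by 0.57 (0.39 to 0.74) and 0.58 (0.35 to 0.80), while *Lama5* was level at -0.02 (-0.34 to 0.29) and *Lamb1* and *Lamb2* at -0.10 and -0.29. *Lama4* could not be told from background in the *Wtap* flox/flox library. Its endothelial-like level there was at 0.10 (-0.26 to 0.48) over macrophage-like and -0.38 (-0.83 to 0.10) over T-cell-like nuclei. Thus 4 of 9 members were at least 1.5-fold higher and 0 lower, where 34% and 7.58% of all genes were. The median over all genes was also above 0, with a log2 ratio of 0.36 against 0.58 for the members. *Gm42418*, a gene rich in ribosomal RNA reads, took 14.3% of endothelial-like UMIs in one library and 7.66% in the other, the 12 endothelial markers had 3850 and 7174 CPM, the 12 macrophage markers 194 and 579 CPM, and the 12 fibroblast markers 765 and 1314 CPM. Their part in the result was not tested. With median-of-ratios scaling, which set the median of all genes to -0.02 and the shares past the fold to 15.9% higher and 17.0% lower, 2 members were higher (*Lama2* and *Nid1*) and 1 lower (*Lamb2*), and *Lamc1* was at 0.51, *Nid1* at 0.63, *Hspg2* at 0.19 and *Lama5* at -0.40. *Lama4* was at -0.0075 and *Lamc1* at 0.52 once nuclei with over 5% mitochondrial UMIs were removed. *Lamc1* was at 1.31 (0.87 to 1.75) in endothelial cluster 3 and at -0.28 (-1.14 to 0.50) in cluster 11.

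Pericyte-like nuclei had more *Lamc1*, with 90.4 CPM (56 UMIs) against 169 CPM (83 UMIs), at 0.90 (0.40 to 1.42), and less *Lamb2*, with 107 CPM (66 UMIs) against 44.8 CPM (22 UMIs), at -1.25 (-2.02 to -0.54), or -0.50 without nuclei of over 5% mitochondrial UMIs. The *Lamc1* level in the *Wtap* flox/flox library was at background, at -0.05 (-0.94 to 0.95) against T-cell-like nuclei. These were the 1 member past the fold in each direction among 9 tested, against 22.6% and 12.5% of all genes. The other 7 had intervals that spanned 0, and the median of the members was 0.09, as was that of all genes. This lineage also held 474 and 686 CPM of 8 smooth muscle markers, 831 and 973 CPM of 10 Schwann cell markers and 190.4 and 873 CPM of 12 macrophage markers. Their part in the result was not tested.

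**Figure D4:**
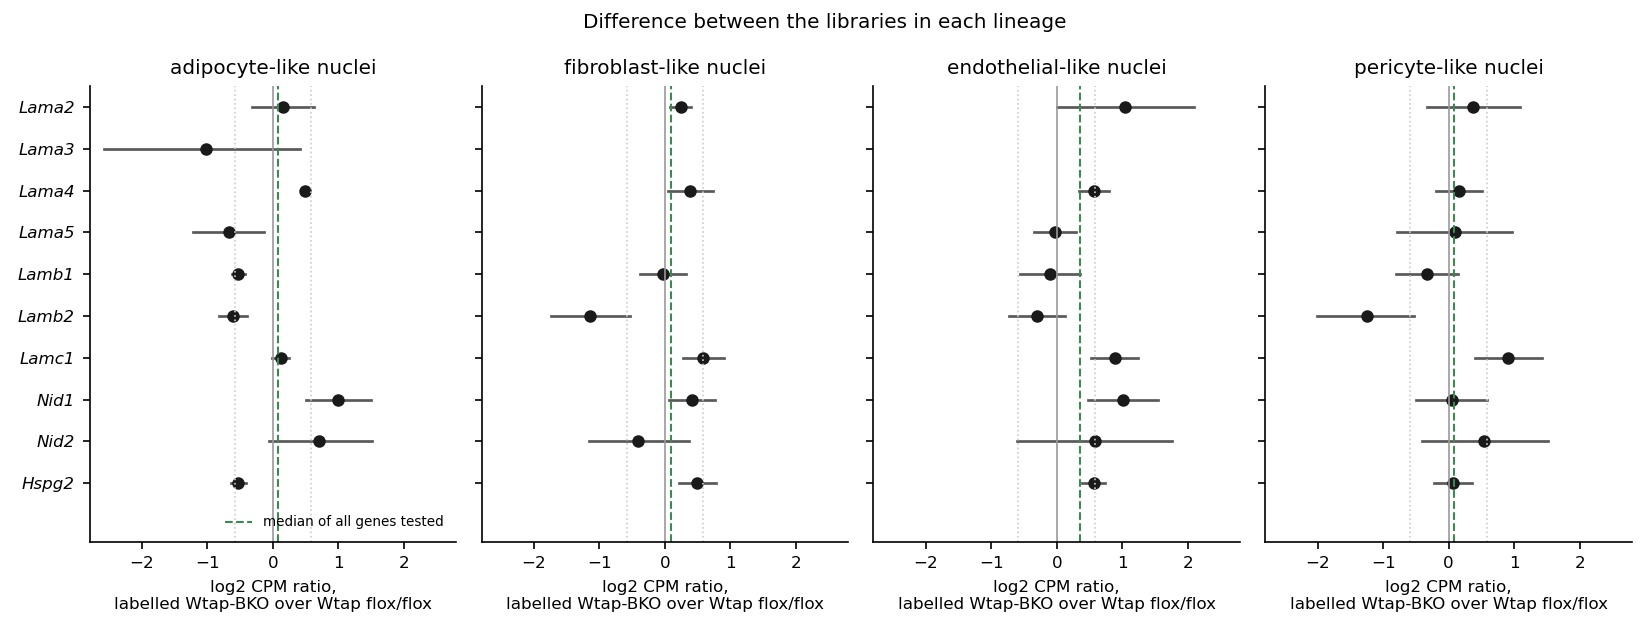
Log2 CPM ratio of the library labelled *Wtap*-BKO to that of *Wtap* flox/flox (x axis) for each gene (y axis) with 20 or more UMIs in 4 lineages; points are the ratios, lines the 95% counting intervals, dotted lines the 1.5-fold limits and the green dashed line the median of all genes tested. *Lamb2* is below 0 in all 4 panels (at 0.02 in endothelial-like nuclei with a minimum of 1000 UMIs per nucleus) and *Lamc1* above 0, with *Lama4* at 0.49 and *Lamb1* at -0.53 in adipocyte-like nuclei.

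In the immune lineages, where the UMIs are read as free RNA, no member was past the fold upward. Of 7 tested in macrophage-like nuclei, 4 were at least 1.5-fold lower (*Lama2*, *Lamb1*, *Lamb2* and *Lamc1*) and 0 higher, with 16.7% and 25.8% of all genes past the fold in those directions. In T-cell-like nuclei, 3 of 5 were lower (*Lamb1*, *Lamb2* and *Hspg2*) and 0 higher, against 18.8% and 31.7% of all genes. With median-of-ratios scaling 2 of 5 were lower (*Lamb1* and *Hspg2*) and 0 higher, against 9.20% and 46.9%. *Lamb2* was below 0 in all 6 lineages, from -0.29 to -1.25, except at 0.02 in endothelial-like nuclei with a minimum of 1000 UMIs per nucleus, and in endothelial-, macrophage- and T-cell-like nuclei its interval spanned 0.

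Directions of the same gene differed between lineages for *Hspg2*. The ratio was -0.53 in adipocyte-like nuclei and 0.57 in endothelial-like nuclei, a difference of -1.09 (-1.3 to -0.88), and against fibroblast-like nuclei the difference was -1.02 (-1.32 to -0.73). For *Lamc1*, adipocyte-like nuclei (0.12) differed from fibroblast-like nuclei by -0.46 (-0.80 to -0.13) and from endothelial-like nuclei by -0.77 (-1.14 to -0.40). With immune CPM subtracted the order turned, with *Lamc1* at 1.78 in adipocyte-like and 0.88 in fibroblast-like nuclei. The endothelial-like *Lamc1* level in the *Wtap* flox/flox library was at background. For *Lama4*, adipocyte-like, fibroblast-like and endothelial-like nuclei did not differ beyond counting error.

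Other genes of the pathway were taken from lists chosen by name. Of the type IV collagens, the network that nidogens tie to laminin, 5 of 6 were testable in adipocyte-like nuclei, with 2 past the fold downward and 0 upward, against 12.1% and 25.2% of all genes. *Col4a2* had 250.1 CPM (1905 UMIs) and 117 CPM (978 UMIs), at -1.09 (-1.2 to -0.98), and *Col4a1* was at 0.24 (0.13 to 0.35). In the immune lineages *Col4a2* was at -1.12 and -1.23. *Col4a5* was at -1.31 (-1.66 to -0.97), but its level of 30.5 CPM in the *Wtap* flox/flox library was below the 43.7 CPM of macrophage-like nuclei, which is background, and macrophage-like nuclei were at -2.87 (-4.16 to -1.63). *Col4a1* and *Col4a2*, whose products join in 1 molecule, gave 0.650 UMIs of the former per UMI of the latter in the *Wtap* flox/flox library and 1.64 in the other. In macrophage-like nuclei that ratio was 0.595 and 1.59, again near the adipocyte-like value of each library. In fibroblast-like nuclei *Col4a1* was at 0.43 (0.23 to 0.63) and *Col4a2* at 0.14 (-0.12 to 0.41). There 2 of 5 were past the fold upward, *Col4a3* at 0.93 (-0.10 to 2.13, 9 and 57 UMIs) and *Col4a4* at 1.49 (0.44 to 2.76, 8 and 75 UMIs), and 1 downward, *Col4a5* at -0.93 (-2.28 to 0.53, 8 and 14 UMIs), against 23.8% and 13.5% of all genes. In endothelial-like nuclei 1 of 2 was past the fold upward, *Col4a1* at 0.59 (0.38 to 0.79), with *Col4a2* at 0.15, against 34% of all genes, and with median-of-ratios scaling 0 of 2 were, against 15.9%. In pericyte-like nuclei 0 of 2 were past the fold, with *Col4a1* at 0.19 and *Col4a2* at -0.18, against 22.6% and 12.5% of all genes.

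Of 16 other basement membrane components, 13 were testable in adipocyte-like nuclei, and 7 were at least 1.5-fold higher with 0 lower, against 25.2% and 12.1% of all genes. Of the 7, *Col15a1* and *Ntn1* had 6.57 and 4.33 CPM in the *Wtap* flox/flox library, below both immune lineages, and at 2-fold 3 of 13 were higher (*Col15a1*, *Col18a1* and *Ntn1*) and 0 lower, against 14.6% and 4.32% of all genes. The 3 with the most UMIs were *Smoc1* at 0.90 (0.78 to 1.01), *Agrn* at -0.35 (-0.46 to -0.24) and *Pxdn* at 0.53 (0.42 to 0.65), which encode a calcium-binding matrix protein, agrin and the peroxidase that cross-links type IV collagen. The median of the 13 was 0.67. *Sparc*, a matrix protein that binds collagen, was past the fold upward in the 4 lineages other than immune ones, at 0.78 in adipocyte-like, 0.88 in fibroblast-like, 0.78 in endothelial-like and 1.12 in pericyte-like nuclei. It was also past the fold in T-cell-like nuclei, at 0.91 (-0.39 to 2.58), and in the unnamed cluster, at 1.05, and was at 0.41 (-0.32 to 1.23) in macrophage-like nuclei. *Sparc* was singled out after its values were seen. *Agrn* was past the fold downward in fibroblast-like (-1.32) and pericyte-like (-0.82) nuclei, and also in macrophage-like (-1.2) and T-cell-like (-1.0) nuclei. Its fibroblast-like level of 118 and 47.4 CPM was below macrophage-like (125 and 54.2 CPM) and T-cell-like nuclei (136 and 68.3 CPM) and is read as background. In fibroblast-like nuclei 3 of 14 were higher (*Sparc*, *Fbln1* and *Ntn1*) and 1 lower (*Agrn*), where 23.8% and 13.5% of all genes were. The other leading genes there by UMIs were *Col15a1* at 0.29 and *Smoc2* at 0.11. In endothelial-like nuclei, where *Ltbp4* was at -0.43 and *Agrn* at -0.21, 7 of 10 were higher and 0 lower, against 34% and 7.58% of all genes, and with median-of-ratios scaling 3 were higher (*Col15a1*, *Ntn1* and *Egflam*) and 2 lower (*Agrn* and *Ltbp4*), against 15.9% and 17.0%. In pericyte-like nuclei, where *Egflam* was at 0.09, 5 of 12 were higher (*Col15a1*, *Sparc*, *Fbln2*, *Smoc1* and *Smoc2*) and 2 lower (*Agrn* and *Ltbp4*), against 22.6% and 12.5%.

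Of 13 laminin receptors and related genes, 12 were testable in adipocyte-like nuclei, with 3 higher (*Itga2*, *Itga7* and *Sdc1*) and 0 lower, against 25.2% and 12.1% of all genes. With mitochondrial UMIs left out 5 of 12 were higher (*Itga1*, *Itga2*, *Itga7*, *Dag1* and *Sdc1*) and 0 lower, against 29.3% and 8.97%. *Itga2* (1.18 and 4.44 CPM) and *Sdc1* (0.39 and 2.04 CPM) were below T-cell-like nuclei in both libraries. *Itga7*, the integrin subunit that binds laminin in muscle, had 29.3 CPM (223 UMIs) and 83.8 CPM (698 UMIs), at 1.52 (1.3 to 1.74). *Dag1*, dystroglycan, was at 0.56 (0.47 to 0.66), while *Rpsa* was at 0.07. In endothelial-like nuclei *Itgb1*, the beta subunit shared by laminin-binding integrins, had 116 and 265 CPM, at 1.2 (0.89 to 1.5), while T-cell-like nuclei had 229.8 and 258 CPM. There 4 of 10 were higher (*Itga3*, *Itga7*, *Itgb1* and *Bcam*) and 2 lower (*Rpsa* at -0.70 and *Sdc4*), against 34% and 7.58% of all genes, with *Itga1* at 0.41 and *Itga6* at 0.52. In fibroblast-like nuclei, with *Rpsa* at -0.21 and *Dag1* at 0.18, 1 of 7 was higher (*Itga7*, with 4 and 21 UMIs), where 23.8% of all genes were, and in pericyte-like nuclei, with *Rpsa* at 0.48, *Itga1* at 0.20 and *Itgb1* at 0.23, 1 of 9 (*Dag1*), where 22.6% were. Of the 4 other laminin chains, *Lamb3* was past the fold downward in adipocyte-like nuclei, with 202 and 137 UMIs, at -0.69 (-1.01 to -0.37). Its 26.5 and 16.5 CPM there were below the 57.4 and 23.5 CPM of T-cell-like nuclei, which were at -1.29 (-2.50 to 0.08), and are read as background. *Lamc3* had 127 and 187 CPM in pericyte-like nuclei, at 0.55 (0.10 to 1.01), and was at -0.22 in adipocyte-like and 0.51 in fibroblast-like nuclei.

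Across the 12 points of 6 lineages and 2 libraries, the pattern of *Nid1* was close to that of *Nid2* (Pearson's r of log2(CPM + 1) 0.95) and *Lama2* to those of *Nid2* (0.85) and *Lamc1* (0.85). Among 7194 genes, the 3 most alike to *Lama2* were *Pcdh9*, *Egfr* and *Ltbp1* (0.98, 0.97 and 0.97), to *Lama5* were *Robo4*, *Tmem44* and *Slc9a3r2* (0.97 each), and to *Lamb1* were *Ebf2* (a marker used to name fibroblasts), *Adam12* and *Slc24a3* (0.97, 0.97 and 0.95). To *Lama4* they were *Slc1a3*, *Pde4dip* and *Sfxn1* (0.92, 0.90 and 0.90), and to *Hspg2* they were *Col4a2*, *Sptbn1* and *Mid2* (0.95, 0.95 and 0.94). For *Lamb2* the 3 were *Lrrc8a*, *Sptbn1* and *Zhx3* (0.92, 0.90 and 0.89), and for *Lamc1* they were *Gstt1*, *P3h1* and *Naaladl2* (0.93, 0.93 and 0.92). *Nid1* was most like *Abca8b*, *Srgap1* and *Il1r1* (0.98, 0.98 and 0.97), and *Nid2* like *Colgalt2*, *Il1r1* and *Bgn* (0.97, 0.96 and 0.95). The points of 1 library share its free RNA and those of 1 lineage its cell type, so these values are descriptions.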

How the data were processed

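Nuclei from frozen iBAT, 4 mice pooled per genotype, were profiled by 3' droplet snRNA-seq. The authors deposited raw UMI counts per gene and nucleus for 2 libraries, made with Cell Ranger 5.0.0 (file header) on mm10 (processing notes). Whether intronic reads were counted is not given in the sources used here. Each deposited nucleus had at least 500 UMIs, and no further nuclei were removed. Gene spans came from the RefSeq annotation of GRCm38.p6, the same build as mm10.

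The libraries were integrated in Seurat 5.3.0 (R 4.3.3) with 2000 variable features, 20 principal components (PCs) and resolution 0.5, leaving out 49 basement membrane genes, which gave 13 clusters. Classes other than adipocytes were named where at least 3 markers had 10 or more UMIs and 2-fold the CPM of all other nuclei, after adding 1 CPM. Adipocyte-like clusters had at least 50% of 12 markers at 1.5-fold or more within the library holding most of their nuclei. Both limits, and the exclusion of leading genes of which 1 nucleus held most UMIs, were set after seeing the data. No cluster had markers of another class among its 10 leading genes. Scrublet (scanpy 1.11.5) called 3 and 0 nuclei and was not used. As an alternative, the 721 and 616 nuclei with the highest scores (0.8% per 1000 nuclei) were removed.

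UMIs were summed per lineage and library (Python 3.11.15, numpy 2.4.6, scipy 1.17.1). A gene was past the fold at a CPM ratio of 1.5 or more in either direction, among genes with 20 or more UMIs in both libraries together. A count of 0 was bounded with 3 UMIs. Intervals were exact Poisson, binomial (Clopper-Pearson) and conditional binomial intervals at 95%, and those of differences between log2 ratios were normal approximations. Shares of nuclei with a UMI were taken after thinning to 1000 UMIs. The calculation was tested on simulated data. Where a gene symbol occurred more than once (38 symbols), the gene listed first was used by name.

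All 10 genes are named. Of each pathway list, the 3 testable genes with the most UMIs in a lineage and any count of 5 or fewer are named, except 1 gene that is not reported here, and other genes were singled out after their values were seen. The 3 genes most alike to each member are named where it had at least 50 CPM in 1 lineage. The members and lists were chosen with earlier results of these data known.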

Additional observations from a re-analysis of the deposited data

Results flagged for a closer look

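For 2 genes, the difference between the libraries pointed opposite ways in 2 lineages, with neither counting interval spanning 0. With 1 library per genotype the differences between lineages were not tested, and the immune values are read as free RNA. *Hspg2* was lower in adipocyte-like nuclei of the library labelled *Wtap*-BKO and higher in fibroblast-like and endothelial-like nuclei, so that the log2 ratios differed by -1.02 and -1.09. Against T-cell-like nuclei, where it was lower, the *Hspg2* ratio differed by 1.68 in fibroblast-like and 1.75 in endothelial-like nuclei. *Lamc1* was higher in fibroblast-like, endothelial-like and pericyte-like nuclei and lower in macrophage-like nuclei, with differences of 1.35, 1.65 and 1.67. In the *Wtap* flox/flox library its endothelial-like and pericyte-like levels (92.4 and 90.4 CPM) were at background, with 99.8 CPM in macrophage-like nuclei. In endothelial cluster 11 *Lamc1* was at -0.28 (-1.14 to 0.50).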

How the results depend on the processing

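No paired analysis was possible because each genotype had 1 library with no replicate to pair, and for the same reason no replicate could be left out. Of 370 log2 ratios recomputed under other settings, 337 stayed within their counting interval. The sign changed in 21 values, 19 of them of ratios whose interval spanned 0, such as *Lamb1* in fibroblast-like nuclei (6 of 11 settings, up to 0.67), *Nid2* there (up to 0.51), *Lama5* in endothelial-like nuclei (up to 0.05) and *Lamb1* in pericyte-like nuclei (2.67 with immune CPM subtracted). The other 2 were of ratios whose interval did not span 0: *Lama4* in endothelial-like nuclei was at -0.0075 without nuclei of over 5% mitochondrial UMIs, and *Lamb1* in adipocyte-like nuclei was at 0.24 with immune CPM subtracted. The lineage of the highest level was shared by both libraries for 7 to 9 of the 10 genes, *Lama3* included, whose lineage in the *Wtap* flox/flox library changed in 3 settings. Shares of chain UMIs moved past their interval in 32 of 64 values, and shares of nuclei with a UMI in 26 of 80 before thinning. Of 123 counts of genes past the fold, 86 stayed within 1.5 times the reported count and 37 did not; the cause was not tested. With mitochondrial UMIs left out, 3 genes were higher and 1 lower in adipocyte-like nuclei, against 29.3% and 8.97% of all genes. In fibroblast-like nuclei 1 was higher, against 24.1%. Leaving out *Gm42418* too, an alternative chosen after seeing the data, gave 1 lower in adipocyte-like nuclei. Median-of-ratios scaling gave 1 higher in fibroblast-like nuclei, against 25.9% of all genes. In endothelial-like nuclei it gave 2 higher and 1 lower, against 15.9% and 17.0%. A minimum of 1000 UMIs per nucleus gave 0 lower in adipocyte-like, and 1, 2 and 3 higher in fibroblast-, endothelial- and pericyte-like nuclei. Without nuclei of over 5% mitochondrial UMIs, 1 was lower in adipocyte-like, and 2 higher and 1 lower in endothelial-like nuclei. Removing high doublet scores gave 1 higher in fibroblast-like and 1 lower in endothelial-like nuclei. With 8 PCs, and with basement membrane genes among the variable features, 1 was higher in fibroblast-like and 2 in pericyte-like nuclei, and a resolution of 1.0 gave 2 higher in pericyte-like nuclei. Lineages from the marker UMIs of single nuclei gave 1 higher in adipocyte-like, 1 higher in fibroblast-like, 2 higher and 1 lower in endothelial-like, and 0 lower in pericyte-like nuclei. Subtracting immune CPM gave 0 of 5 lower in adipocyte-like, 4 of 8 higher in fibroblast-like and 3 of 7 higher in pericyte-like nuclei. Of all genes left, 29.8% were lower in adipocyte-like, and 36.8% and 39.7% higher in fibroblast-like and pericyte-like nuclei. For the settings that changed the nuclei or lineages or left out *Gm42418*, no share over all genes is given. Their counts are not read as a result about the members. Without a minimum of UMIs, *Lama3* in fibroblast-like nuclei (0 and 4 UMIs) has no ratio and is not counted. Under this setting 2 were lower in fibroblast-like and 2 higher in pericyte-like nuclei, against 22.7% and 40% of all genes. These shares count genes with 0 UMIs in 1 library as past the fold. With a minimum of 100 UMIs, 1 was higher in adipocyte-like, 2 higher in endothelial-like and 0 lower in pericyte-like nuclei. Over the 4 lineages 12.5% to 29.9% of all genes were then higher and 7.76% to 11.8% lower. At 2-fold, where 10% to 14.7% of all genes were higher and 2.71% to 4.32% lower, 0 were higher and 1 lower in adipocyte-like, 2 higher in endothelial-like and 0 higher in pericyte-like nuclei. Depth limits *Lama3*, *Nid2* and the fibroblast-like and T-cell-like values of the *Wtap* flox/flox library most.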

Other observations

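At a resolution of 1.0 a small cluster of Schwann-like nuclei, the glia that wrap peripheral nerves in a basement membrane, was found with 22 nuclei in the *Wtap* flox/flox library and 15 in the library labelled *Wtap*-BKO. *Lama2*, the alpha chain known from nerve, had 9 UMIs there at 262 CPM (120 to 497) in the first library and 1 UMI in the second. *Hspg2* had 10 UMIs in each, at 291 CPM (139.5 to 535) and 487 CPM (234 to 896). *Nid2* had 7 and 2 UMIs, and *Lama3* had 0 in both. At these counts no difference between the libraries can be read.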
